A study of Mus musculus with 23 samples.

Results

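Transthyretin (Ttr), folate receptor 1 (Folr1), the monocarboxylate transporter Slc16a8 and the leptin receptor (Lepr) were followed through the hippocampus of 23 mice. They are 4 of the 748 genes with values in the table. The 4 genes were picked by name after earlier results of the same table had been seen, among them their group differences. Those differences are therefore given below as descriptions with their errors and without a p-value. The tests concern what was not used to pick the genes, namely how the 4 varied together among mice of the same group once the group means were removed, and females against males. The question set was whether the differences in Lepr followed the amount of choroid plexus RNA in a sample, as read per mouse from Ttr and Folr1.

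The choroid plexus is a vascular tuft covered by an epithelium that secretes cerebrospinal fluid into the brain ventricles, and in the lateral ventricle it lies along the edge of the hippocampus. Its epithelium is the main site of Ttr synthesis in the brain. Ttr carries thyroxine and, with retinol-binding protein, retinol. Folr1 takes up folate for passage into the cerebrospinal fluid, and Slc16a8 (MCT3) carries lactate and related monocarboxylates across the basolateral membrane of this epithelium and of the retinal pigment epithelium. Lepr is the receptor for leptin, the hormone of adipose tissue. It signals through the kinase Jak2 and the transcription factor Stat3, and is transcribed in choroid plexus, in vessels and meninges and in some neurons, with short isoforms prominent in the choroid plexus. The sources do not say which Lepr isoforms the probe reads.

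All 23 mice were 18 months old, were labelled C57BL6/J and gave hippocampal RNA. ADPolB mice given urolithin A, a gut microbial metabolite of ellagitannins, numbered 5, and AD mice given urolithin A numbered 5. On vehicle there were 4 ADPolB mice, 5 AD mice and 4 wild-type mice. Both AD and ADPolB mice carried Tg(APPSwe,tauP301L)1Lfa with Psen1tm1Mpm, the alleles of the 3xTgAD model of Alzheimer's disease. ADPolB mice were in addition heterozygous for Polbtm1Rsky, an allele of the DNA repair polymerase Polb. The dose of urolithin A was 200 mg/kg/day, by gavage over 5 months. All wild-type mice analysed were on vehicle, so the treatment was compared in AD and ADPolB mice only. The labels do not say how the choroid plexus was handled when the hippocampus was taken.

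Values are log2 of normalized nCounter counts, so that a difference of 1 is a doubling, and a level of a probe is set only against levels of the same probe. The inferred total count per mouse ranged from 184988 to 689237. The 2 lowest totals, 184988 and 245177, belonged to ADPolB mice given urolithin A, and the other 21 mice had at least 424535. Of the markers listed for the labelled tissue, the neuronal genes Gad1 (10.77 to 11.96) and Grin1 (9.63 to 10.35) and the astrocyte enzyme Glul were measured in all mice. Of 22 choroid plexus markers listed, 3 were on the panel, and they are Ttr, Folr1 and Slc16a8. Lepr is not on that list. Among 619 genes that reached a normalized value of 20 in at least 4 mice, all 4 genes were included.

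Ttr (chr18:20664209-20674326, GRCm38.p6) had the widest spread of the 4 genes. Its levels were 5.85, 11.64, 12.27, 13.20 and 13.55 in ADPolB mice given urolithin A and 4.12, 6.08, 11.37, 12.07 and 13.09 in AD mice given urolithin A. On vehicle they were 5.69, 10.41, 10.89 and 12.19 in ADPolB mice, 5.87, 6.16, 6.40, 7.08 and 11.28 in AD mice, and 4.95, 5.47, 7.15 and 12.62 in wild-type mice. The highest mouse stood 690-fold above the lowest. No mouse had a level between 7.15 and 10.41, a gap of 3.26 on the log2 scale, or 9.58-fold. Every group held mice on both sides of it, so the groups overlapped throughout. In each group the mouse labelled replicate 3 was above it and the mouse labelled replicate 2 below it. Above the gap were 4 of 5 ADPolB and 3 of 5 AD mice given urolithin A, and 3 of 4 ADPolB, 1 of 5 AD and 1 of 4 wild-type mice on vehicle. By treatment this was 7 of 10 mice given urolithin A, against 5 of 13 on vehicle with the wild-type mice included. Of the AD and ADPolB mice on vehicle, 4 were above the gap and 5 below it. By sex it was 6 of 11 females, against 6 of 12 males. In whole hippocampal RNA, fewer choroid plexus cells and less of a transcript per cell cannot be told apart.

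Folr1 (chr7:101858331-101870788) split the mice in the same places. Its levels were 4.03, 8.24, 8.69, 9.28 and 9.69 in ADPolB mice given urolithin A and 4.11, 4.21, 7.46, 8.05 and 8.99 in AD mice given urolithin A. On vehicle they were 4.23, 6.87, 7.74 and 8.46 in ADPolB mice, 3.46, 4.06, 4.50, 4.87 and 7.55 in AD mice, and 3.69, 3.89, 4.47 and 8.83 in wild-type mice. The 12 mice above the Ttr gap had Folr1 levels of 6.87 to 9.69 and the 11 below it 3.46 to 4.87, with no overlap. Below the gap Folr1 rested on 10 to 34 inferred counts per mouse, and above it on 103 to 550.

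Slc16a8 (chr15:79251016-79255562) was the dimmest of the 4 in counts, with 7 to 25 inferred counts below the Ttr gap and 26 to 61 above it. Its levels were 4.17, 5.37, 5.63, 6.27 and 7.02 in ADPolB mice given urolithin A and 3.17, 4.28, 4.38, 5.27 and 5.81 in AD mice given urolithin A. On vehicle they were 4.48, 5.03, 5.38 and 5.53 in ADPolB mice, 2.59, 3.14, 3.37, 3.50 and 4.83 in AD mice, and 3.57, 3.69, 3.99 and 5.23 in wild-type mice. Above the gap Slc16a8 ran from 4.38 to 7.02, against 2.59 to 4.48 below it, so the 2 sides met. The highest level below the gap, 4.48, was that of the only ADPolB mouse on vehicle with low Ttr.

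Lepr (chr4:101717137-101815352) had the narrowest range of the 4, 4.80 to 7.89, or 8.51-fold. Its levels were 6.44, 6.94, 7.13, 7.37 and 7.89 in ADPolB mice given urolithin A and 6.21, 6.42, 6.79, 7.07 and 7.46 in AD mice given urolithin A. On vehicle they were 5.01, 6.0, 6.88 and 6.93 in ADPolB mice, 4.80, 4.82, 5.57, 6.37 and 6.38 in AD mice, and 4.98, 4.99, 5.37 and 7.38 in wild-type mice. In both genotypes 4 of 5 mice given urolithin A had more Lepr than any vehicle mouse of their genotype, and 5 of 5 lay above the vehicle mean. The single mouse of each treated group that did not was on the low side of the Ttr gap. The wild-type mouse at 7.38 was the one wild-type mouse above the gap, and the other 3 had at most 5.37.

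**Figure D1:**
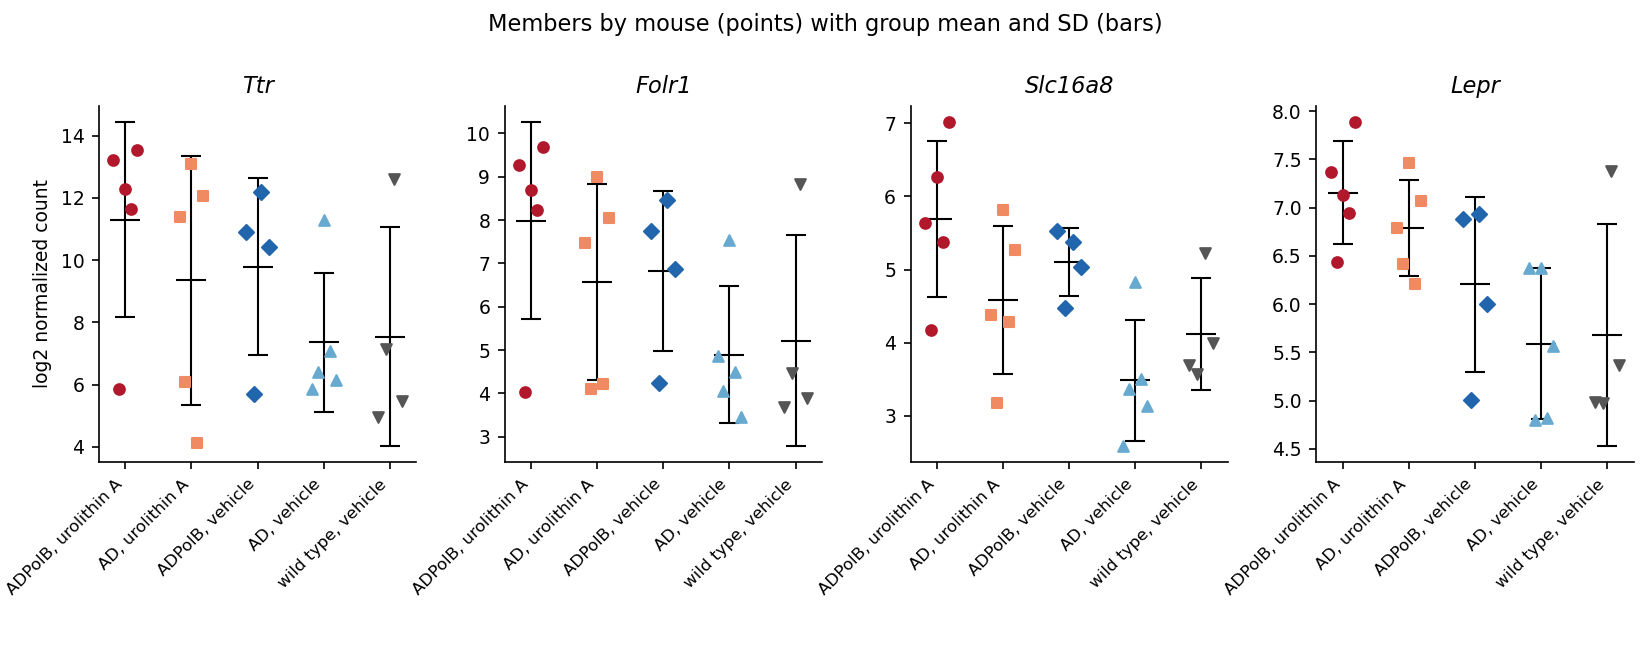
Levels of Ttr, Folr1, Slc16a8 and Lepr (log2 normalized count) in each mouse, by group, with the group mean and SD as bars; the 4 vertical scales differ. The plot of levels by mouse shows every group of Ttr and Folr1 divided into high and low mice, with 1 high mouse each among AD and wild-type mice on vehicle, while the lowest Lepr level of any mouse given urolithin A is 6.21.

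The group means followed that division. Mean Ttr was 11.30 ± 3.14 in ADPolB (SD, n = 5) and 9.35 ± 3.98 in AD mice (n = 5) given urolithin A, and 9.80 ± 2.84 in ADPolB (n = 4), 7.36 ± 2.24 in AD (n = 5) and 7.55 ± 3.51 in wild-type mice (n = 4) on vehicle. Mean Folr1 in the same order was 7.99 ± 2.28, 6.56 ± 2.26, 6.83 ± 1.85, 4.89 ± 1.58 and 5.22 ± 2.43. Slc16a8 averaged 5.69 ± 1.06, 4.58 ± 1.01, 5.11 ± 0.47, 3.49 ± 0.83 and 4.12 ± 0.76. For Lepr the means were 7.15 ± 0.53, 6.79 ± 0.50, 6.21 ± 0.90, 5.59 ± 0.78 and 5.68 ± 1.15. All 4 genes thus had their highest mean in ADPolB mice given urolithin A and their lowest in AD mice on vehicle. Neighbours in the order lay within 1 SD of each other for Ttr and Folr1. For Lepr and Slc16a8 they did so by the larger SD of each pair of neighbours, but not always by the smaller. Lepr differed in its order from the other 3, which were higher in ADPolB mice on vehicle than in AD mice given urolithin A.

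Over both genotypes, urolithin A minus vehicle was 1.75 (SE 1.37) for Ttr, 1.42 (SE 0.897) for Folr1, 0.84 (SE 0.381) for Slc16a8 and 1.08 (SE 0.338) for Lepr. The 95% intervals were -1.09 to 4.59 for Ttr, -0.45 to 3.28 for Folr1, 0.05 to 1.63 for Slc16a8 and 0.37 to 1.78 for Lepr. These intervals are descriptions and not tests, since the genes were picked with their group differences known. limma's moderated test with Benjamini-Hochberg adjustment called 0 of 619 genes in this comparison (0%), where 34 reached an unadjusted p under 0.05. The median of all genes was 0.05. In AD mice the Lepr difference was 1.20 (SE 0.463) and in ADPolB mice 0.95 (SE 0.492). The difference between those differences, ADPolB minus AD, was -0.25 (SE 0.676), so its interval of -1.66 to 1.15 held changes of either sign.

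Among vehicle mice, ADPolB minus AD was 2.44 (SE 1.99) for Ttr, 1.94 (SE 1.30) for Folr1, 1.62 (SE 0.555) for Slc16a8 and 0.62 (SE 0.492) for Lepr. Slc16a8 is the gene of these with the least spread relative to its difference, and 3 of 4 ADPolB mice lay above all 5 AD mice. AD minus wild type was within its error for Ttr, Folr1 and Lepr, whose sign turned with 1 mouse left out, and near it for Slc16a8, at -0.19 (SE 1.99) for Ttr, -0.33 (SE 1.30) for Folr1, -0.63 (SE 0.555) for Slc16a8 and -0.09 (SE 0.492) for Lepr. ADPolB minus wild type on vehicle was 2.25 (SE 2.09) for Ttr, 1.605 (SE 1.38) for Folr1, 0.985 (SE 0.585) for Slc16a8 and 0.53 (SE 0.518) for Lepr. No ADPolB mouse exceeded the highest wild-type mouse in Ttr, Folr1 or Lepr, and 2 of 4 did in Slc16a8. None of the 4 genes was called by limma in any of these 3 comparisons, in which 0% of 619 genes were called for each ADPolB comparison and 0.162% for AD against wild type. At an unadjusted p under 0.05 these comparisons had 26, 57 and 81 genes, for ADPolB against AD, AD against wild type and ADPolB against wild type.

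The 2 sides of the Ttr gap were then taken apart, since a correlation over all mice would only restate the gap. Among the 12 mice above it, the levels of Lepr and Ttr had r = 0.919 (Spearman rho = 0.937), those of Lepr and Folr1 0.940 (rho = 0.944) and those of Ttr and Folr1 0.966 (rho = 0.965). These values are descriptions, since they also hold the group differences known when the genes were picked. The test therefore used deviations from the group means, permuted within groups, over the 10 mice of the 3 groups with more than 1 mouse above the gap. Lepr rose with Ttr among mice of the same group (r = 0.866, exact permutation p = 0.0081, rho = 0.879, p = 0.0116), with adjusted values of 0.0278 and 0.0463 over the 12 relations computed. Without the 2 mice farthest from the median of Ttr, r was 0.832 (exact permutation p = 0.0208, against a smallest possible 0.0104). Lepr and Folr1 had r = 0.937 (rho = 0.952) and Ttr and Folr1 r = 0.978 (rho = 0.939), each with an adjusted exact permutation p = 0.00694 for r and 0.0139 for rho. The 2 raw p for r were 0.00116, the smallest that these permutations can give. Without the 2 farthest mice r was 0.948 for Lepr and Folr1 (exact permutation p = 0.0208). For Ttr and Folr1 it was 0.959 (exact permutation p = 0.0104).

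Slc16a8 was tied less firmly to the others above the gap. Within groups it had r = 0.684 with Ttr (adjusted exact permutation p = 0.107), 0.738 with Folr1 (0.0722) and 0.778 with Lepr (0.0278). The last did not pass by rho (0.746, adjusted exact permutation p = 0.0972), and r was 0.564 without the 2 farthest mice.

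Below the gap, where Ttr was 4.12 to 7.15, none of the 6 relations passed. Ttr rested there on 17 to 179 inferred counts, Folr1 on 10 to 34 and Slc16a8 on 7 to 25. With so few counts, a missing relation does not show that Lepr varied independently of choroid plexus RNA. Lepr against Ttr had r = -0.292 within groups (exact permutation p = 0.257, adjusted 0.385) over 9 mice, and r = -0.385 for the levels of all 11. The lowest adjusted p of the 6 was 0.107, for Slc16a8 and Lepr (r = -0.619). Lepr still differed among these mice. It was 6.21, 6.42 and 6.44 in the 3 mice given urolithin A, against 4.80 to 6.38 with a median of 5.00 in the 8 on vehicle. The 5 AD and ADPolB mice among those 8 had the same range and a median of 5.01. Of those 8, an AD mouse reached 6.38 and the other 7 had at most 5.57. Above the gap Lepr was 6.79 to 7.89 with a median of 7.13 in the 7 mice given urolithin A. It was 6.0 to 7.38 with a median of 6.88 in the 5 on vehicle, and these ranges overlapped. Without the wild-type mouse the 4 on vehicle had 6.0 to 6.93 with a median of 6.625, which still overlapped.

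**Figure D2:**
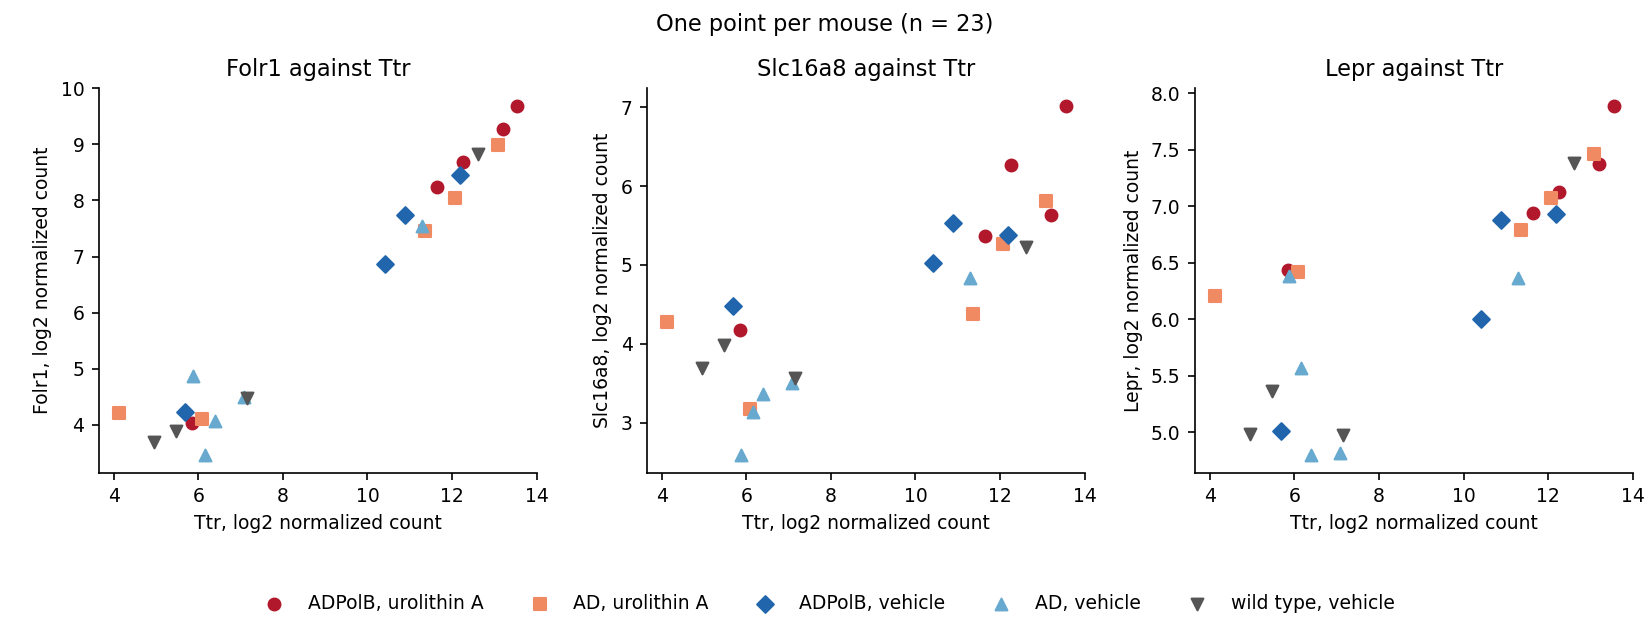
Folr1, Slc16a8 and Lepr (vertical, log2 normalized count) against Ttr (horizontal, log2 normalized count), 1 point per mouse, with colour and shape for the group. Above the empty interval from 7.15 to 10.41, the Lepr and Folr1 levels climb with Ttr; below it Lepr spans 4.80 to 6.44 with the 3 urolithin A mice at 6.21 to 6.44.

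To set the members against the panel, a slope on the Ttr level was fitted for each of the other 618 genes together with the 5 group means, so that it reflects differences among mice of 1 group. limma called 21 genes, or 3.4%, and all 21 had positive slopes, while over all 618 genes 378 slopes were positive and 240 negative. Folr1, Slc16a8 and Lepr were all called in this fit. The slope was 0.64 for Folr1 (SE 0.0324, adjusted p = 5.97e-12 by limma), 0.23 for Slc16a8 (SE 0.0362, adjusted p = 0.00051) and 0.19 for Lepr (SE 0.0354, adjusted p = 0.00204), in log2 units per log2 unit of Ttr. They ranked 1, 4 and 9 by p. With the replicate number as a block, 1 of 618 genes was called, and the slopes of Lepr (0.10, adjusted p = 0.664) and Slc16a8 (0.16, adjusted p = 0.44) were not. The number called was 47 without the AD mouse on vehicle of replicate 5 and 14 without the wild-type mouse of replicate 3, and for Lepr the slope without 1 mouse in turn ranged from 0.156 to 0.207. Since most of the spread in Ttr lies across the gap, the slopes mainly compare mice on its 2 sides.

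Other genes called for the Ttr slope had a range of functions. Car12, a membrane carbonic anhydrase, had a slope of 0.18. Npr1, a natriuretic peptide receptor, had 0.22. Enzymes of methyl-group, aldehyde and fatty acid metabolism were also among them, with slopes of 0.24 for Bhmt, 0.17 for Dmgdh, 0.21 for Inmt, 0.07 for Aldh2, 0.12 for Cpt1a and 0.16 for Acacb. A2m, a protease inhibitor, had the next highest slope after Folr1, 0.31. Serinc2 had 0.20 and the extracellular superoxide dismutase Sod3 0.15, and further genes called were Lamb1, Thbs1, Nqo1, Aox1, Atox1 and Acadl.

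With only the 12 mice above the gap, 2 of 618 genes (0.324%) were called by limma, Folr1 with a slope of 0.80 (adjusted p = 0.000415) and Car12 with 0.60 (adjusted p = 0.0117). Lepr had 0.42 (SE 0.0988), ranked 6 and missed the threshold (adjusted p = 0.178). Of all 618 genes 358 had positive slopes there, among them the 21 called over 23 mice, which had been chosen on mice that include these 12. With only the 11 mice below the gap, limma called none (0%, with 2 genes at an unadjusted p under 0.05), and the slopes were 0.16 (SE 0.217) for Folr1, -0.15 (SE 0.210) for Slc16a8 and -0.17 (SE 0.222) for Lepr. The slope of Lepr with the side of the gap as a further term was 0.09 (SE 0.130, adjusted p = 0.889 by limma). In that fit Folr1 had 0.50 (SE 0.116, adjusted p = 0.0729 by limma) and Slc16a8 0.15 (SE 0.134, adjusted p = 0.857 by limma). None of the 3 genes was called there. The slopes on the 2 sides were not tested against each other.

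**Figure D3:**
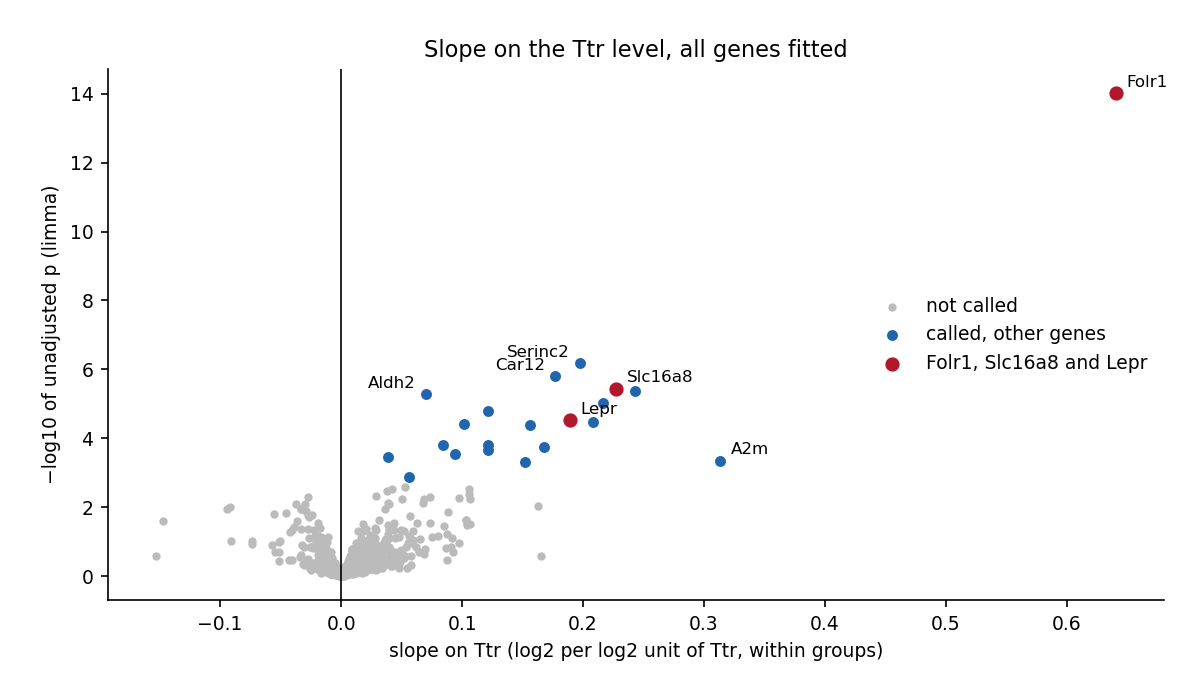
Slope on Ttr within groups (horizontal, log2 per log2 unit of Ttr) against -log10 of the unadjusted p from limma (vertical) for 618 genes; Folr1, Slc16a8 and Lepr are in red, the other genes called in blue and the rest in grey. Folr1 stands apart at 0.64, Lepr (0.19) and Slc16a8 (0.23) lie among the called genes, and no called gene has a negative slope.

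With the Ttr level in the model, the Lepr difference between urolithin A and vehicle was smaller on the log2 scale, again as a description without a test. It was 0.74 (SE 0.230, 95% interval 0.27 to 1.22), against 1.08 without Ttr. With Folr1 in place of Ttr it was 0.63 (SE 0.206), with the mean of both 0.70 (SE 0.219), and with Slc16a8 0.58 (SE 0.294). In AD mice it was 0.83 (SE 0.312) and in ADPolB mice 0.66 (SE 0.327) with Ttr in the model. The genotype differences in Lepr were nearer to 0 in the same model. ADPolB minus AD was -0.01 (SE 0.312) on urolithin A and 0.16 (SE 0.334) on vehicle, and ADPolB minus wild type 0.10 (SE 0.349). With 1 mouse left out they ran from -0.13 to 0.08, -0.02 to 0.40 and -0.10 to 0.48. limma called 0% of 618 genes in each of these comparisons, and 19 to 60 reached an unadjusted p under 0.05.

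That value for the treatment depends on how Ttr enters the model. The log2 model gives Ttr 1 slope over both sides of the gap. With the side of the gap and a separate slope on each side, urolithin A minus vehicle was 0.47 (SE 0.250, 95% interval -0.05 to 1.00). With the side and 1 Ttr slope it was 0.77 (SE 0.234), and with the side in place of the Ttr level 0.80 (SE 0.227). Among mice above the gap it was 0.73 (SE 0.259) without Ttr and 0.23 (SE 0.199, 95% interval -0.22 to 0.68) with it, and the same mice differed by 1.20 (SE 0.501) in Ttr itself. Among mice below the gap it was 1.18 (SE 0.414) without Ttr and 1.08 (SE 0.444) with it, where Ttr rested on 17 to 179 inferred counts. That side held 3 treated mice and, on vehicle, 5 mice of these genotypes. On each side the 2 genotypes have equal weight, so single mice count heavily. Above the gap the AD part rests on 1 vehicle mouse. Below it the ADPolB part rests on 1 treated mouse against 1 on vehicle. With Ttr in the model the Lepr difference above the gap was 0.10 for ADPolB and 0.36 for AD. Below the gap it was 1.46 for ADPolB and 0.71 for AD. These alternative models were chosen after the gap had been seen.

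On the linear scale the difference that remained was smaller. Lepr was 133 normalized counts in mice given urolithin A, against 68.9 in AD and ADPolB mice on vehicle, a difference of 64.3 (SE 22.0). With Ttr in the model the means were 109 with urolithin A and 88.2 on vehicle, a difference of 21.03 (SE 10.99), or 0.31 on the log2 scale. Lepr rose by 13.3 normalized counts (SE 1.54) for each 1000 normalized counts of Ttr. Leaving out 1 mouse at a time moved the difference between 16.3 and 26.8. Each of these models gave a smaller Lepr difference than the group means of the same mice. With 1 positive Ttr slope and a higher mean Ttr with urolithin A this follows by construction, so it is not a separate test. What remained over both genotypes ran from 0.23 to 0.80 on the log2 scale, apart from the mice below the gap at 1.08.

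**Figure D4:**
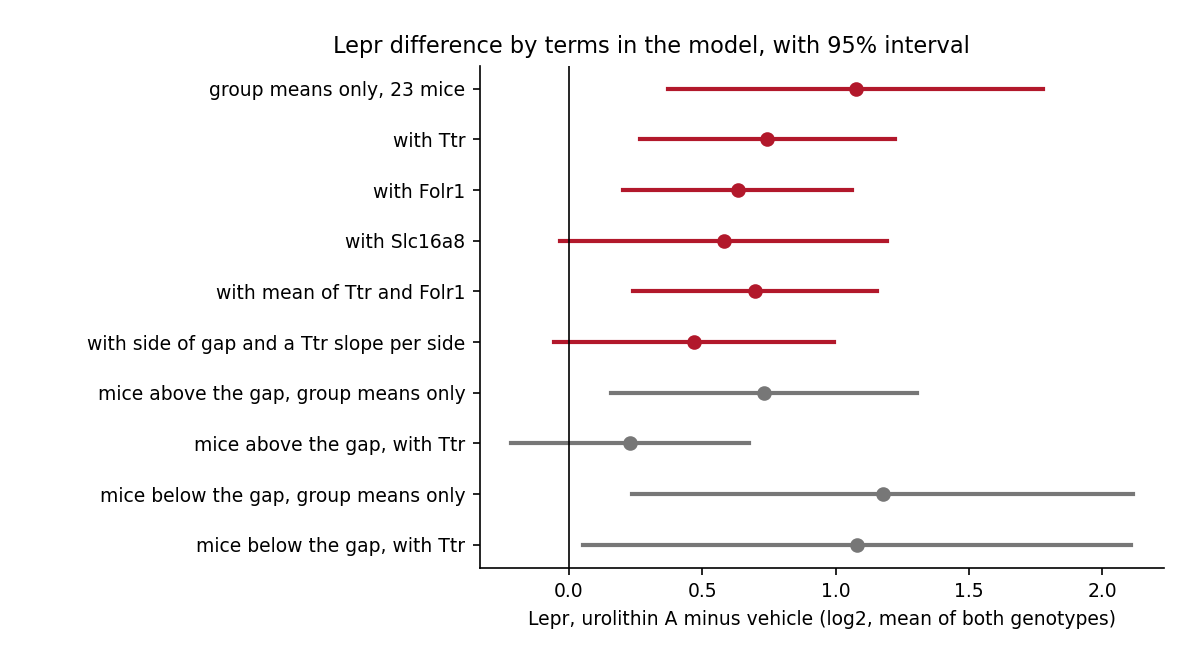
Lepr, urolithin A minus vehicle (log2, mean of both genotypes), with its 95% interval under each set of terms; red rows use all 23 mice and grey rows mice on 1 side of the Ttr gap. The estimate is 1.08 from group means alone and 0.74 with Ttr, and 3 of the 10 intervals reach below 0: those with Slc16a8, with a slope on each side, and above the gap with Ttr. The grey rows rest in part on single mice: 1 AD vehicle mouse above the gap and 1 ADPolB mouse per treatment below it. The fit on the linear scale with Ttr, 21.03 (SE 10.99) normalized counts, is not among the 10 intervals.

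Folr1 and Slc16a8 were treated in the same way. With Ttr in the model, urolithin A minus vehicle was 0.30 (SE 0.211) for Folr1 and 0.44 (SE 0.235) for Slc16a8. ADPolB minus AD on vehicle was 0.38 (SE 0.305) for Folr1 and 1.06 (SE 0.341, 95% interval 0.35 to 1.77) for Slc16a8. ADPolB minus AD on urolithin A was 0.67 (SE 0.318) for Slc16a8, with a 95% interval of 0.0015 to 1.33. The AD mice on vehicle had 7, 8, 12, 13 and 32 inferred counts of Slc16a8, so these values rest on few counts.

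Markers of other cells gave the following values beside the Lepr difference. Slc6a12, the betaine and GABA transporter that was the 1 gene measured of 9 listed for leptomeninges and fibroblasts, was 0.70 higher with urolithin A than on vehicle (SE 0.262, not called), and its slope on Ttr was 0.04, not called. Its levels ran from 3.96 to 5.78 in ADPolB and 4.42 to 5.56 in AD mice given urolithin A, against 4.01 to 4.50 in ADPolB, 3.42 to 4.64 in AD and 3.48 to 4.90 in wild-type mice on vehicle. Pdgfrb, the 1 of 5 mural cell markers measured, was 0.25 higher with urolithin A and had a slope of 0.06, neither called. The 3 of 11 endothelial markers measured, Flt1, Slc2a1 and Slc16a1, had slopes above 0 and none was called. The log2 of their sum was 9.18 to 9.81 in ADPolB and 9.22 to 9.65 in AD mice given urolithin A, against 9.17 to 9.88, 9.31 to 10.1 and 8.93 to 9.46 in ADPolB, AD and wild-type mice on vehicle. Their part in the Lepr difference was not tested.

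Of 25 genes listed for leptin signalling 15 were measured, Lepr among them. With urolithin A 8 of the 15, Lepr included, were above vehicle and 7 below, beside 412 and 207 of all 619 genes, and none was called by limma. The median was 0.01, against 0.05 over all 619 genes. Jak2, the kinase bound to the receptor, differed by -0.10 (SE 0.0987), its target Stat3 by 0.09 (SE 0.140) and Stat5a by 0.34 (SE 0.184). On the Ttr level the only one of the 15 called was Lepr. In the folate list 6 of 25 genes were measured and Folr1 alone was called for its Ttr slope, with 0.02 (SE 0.0367) for Shmt1 and 0.05 (SE 0.0388) for Tyms, enzymes of folate one-carbon metabolism. The lactate transporter Slc16a1 had a Ttr slope of 0.04 (SE 0.0215) and was not called. Of 13 monocarboxylate and lactate genes listed 10 were measured, and all 10 were above 0 with urolithin A, with a median of 0.08 and none called, beside 412 of 619 over all genes. Rbp4, the retinol carrier that binds the Ttr protein, had a slope of -0.07 (SE 0.0419, not called).

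Sex was tested as a term beside the 5 group means. Female minus male was 0.43 (SE 1.31) for Ttr, 0.30 (SE 0.858) for Folr1, 0.17 (SE 0.364) for Slc16a8 and 0.35 (SE 0.315) for Lepr, with adjusted p = 0.945, 0.938, 0.924 and 0.771 by limma. None of the 4 was called, nor was any other gene (0%), although 48 reached an unadjusted p under 0.05. Leaving out the AD mouse on vehicle of replicate 5 gave 28 calls in this comparison.

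The genes with the pattern most like Ttr, by the correlation of deviations from group means over 23 mice, were Serinc2 (0.86), Car12 (0.83), Bhmt (0.83), Aldh2 (0.82) and Npr1 (0.81) among the genes other than the 4. Above the gap alone the correlations of the levels were 0.52, 0.95, 0.82, 0.94 and 0.49. For Lepr they were Acacb (0.83), Atox1 (0.82), Inmt (0.79), Bhmt (0.79) and Car12 (0.78). Below the gap the genes most like Lepr were H2-T23 (0.83), Slc6a12 (0.72), Cd163 (0.72), Col6a2 (0.71) and H2-Aa (0.70), over 11 mice. This second list was drawn up after the gap had been seen. H2-T23 and H2-Aa belong to the major histocompatibility complex, Cd163 is a macrophage scavenger receptor and Col6a2 a collagen chain. The points of these correlations share their libraries, and on 1 side of the gap the group means were not removed.

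Because Slc16a8 and Lepr had positive slopes on Ttr, the bases before an annotated start are shown for each of the 2, from RefSeq on GRCm38.p6. RefSeq lists further starts in both genes, so each window lies inside the span given above. The capitals mark matches to the motifs searched, which are an E-box in the first and a GC box in the second.
Slc16a8, chr15:79254749-79254998, minus strand: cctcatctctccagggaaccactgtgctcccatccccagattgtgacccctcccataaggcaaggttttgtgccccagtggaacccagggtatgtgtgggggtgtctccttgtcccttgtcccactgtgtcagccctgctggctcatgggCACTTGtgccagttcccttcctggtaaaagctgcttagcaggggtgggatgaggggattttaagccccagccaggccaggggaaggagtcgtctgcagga
Lepr, chr4:101717656-101717905, plus strand: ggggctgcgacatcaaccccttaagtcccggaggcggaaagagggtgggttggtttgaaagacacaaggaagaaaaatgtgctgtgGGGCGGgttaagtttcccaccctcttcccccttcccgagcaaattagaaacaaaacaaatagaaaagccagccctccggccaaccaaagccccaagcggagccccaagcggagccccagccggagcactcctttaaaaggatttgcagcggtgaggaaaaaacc
The motifs were the OTX-type homeodomain site TAATCC, the STAT-type site TTCNNNGAA, the E-box CANNTG and the GC box GGGCGG, searched on both strands. The match in Slc16a8 starts 100 bases before the start and that in Lepr 164 bases before it. Over 32851 windows of 250 bases in RefSeq, 66.2% held the E-box and 32.7% the GC box. TAATCC was held by 6.25% and TTCNNNGAA by 7.02%, and neither is in the windows shown. A second Lepr window, chr4:101717157-101717406, held 3 E-box matches and neither of these sites. No window of Folr1 is shown.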

How the data were processed

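Hippocampal RNA (about 100 ng, from 5 mg of tissue) was counted on an nCounter metabolic panel, per the labels' protocols. The deposited values are log2 of normalized counts, which the authors made with nCounter Advanced Analysis per the series' design text; the sources name no normalization genes, background correction or version. Of 768 rows 20 were empty, and each column was matched to 1 sample by title. Each sample was taken as 1 mouse; p-values measure the spread between these samples.

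At least 99.6% of low values (up to 40 counts) in each mouse matched whole counts times 1 scaling factor (tolerance 0.0125 log2), which gave the inferred counts. They cover counting error only and were used as descriptions.

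Genes with a normalized value of 20 or more in at least 4 mice were fitted (619 of 748; 129 were left out). limma 3.58.1 in R 4.3.3 (lmFit, eBayes with a trend) fitted 1 mean per group over 23 mice, with the Ttr level or sex as a further term where named; tests were two-sided, adjusted by Benjamini-Hochberg with a threshold of 0.05. The script was tested on simulated data. Correlations were computed on each side of the Ttr gap, of the levels as a description and of deviations from group means as the test, with exact two-sided permutations within groups (864 above, 288 below), a test added after seeing the data. A correlation over all 23 mice had been planned and is not given, since Ttr fell into 2 clusters. The named genes are the 4 members, the genes called for the Ttr slope, the 5 most like Ttr and Lepr, and members of the lists; results for some genes are not reported here. The members and lists were chosen with earlier results of these data known. Sequences and loci are from RefSeq (GRCm38.p6; 747 of 748 symbols matched, promoter entries for 2 of 4 members). Alternatives covered centring, quantile scaling, filters, sex, the replicate block, the moderated variance without a trend, covariates and each mouse left out.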

Additional observations from a re-analysis of the deposited data

Results flagged for a closer look

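Single mice stood far from the rest of their group in 5 of 20 sets of values tested (4 genes in 5 groups of 4 or 5 mice), by Dixon's criterion, which chance meets in about 1 in 20 groups. In ADPolB mice given urolithin A, replicate 2 had a Ttr level of 5.85, with the nearest other mouse at 11.64, and a Folr1 level of 4.03, with the nearest at 8.24. In AD mice on vehicle, replicate 3 had a Ttr level of 11.28, with the nearest at 7.08. In wild-type mice, replicate 3 had a Folr1 level of 8.83, with the nearest at 4.47, and a Lepr level of 7.38, with the nearest at 5.37. Each of these mice was the only one of its group on its side of the Ttr gap, so the 5 values are 3 mice seen in linked genes.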

How the results depend on the processing

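Fits that use the side of the Ttr gap are left out of the following count. Under the other alternatives the group differences of Ttr and Lepr moved by less than 1 SD, with 7 exceptions for Folr1 and 4 for Slc16a8. The SD of Ttr within groups was itself 2.24 to 3.98, so this allows large shifts. With 1 mouse left out, urolithin A minus vehicle in ADPolB mice ran from 0.139 to 2.87 for Ttr and 0.296 to 2.15 for Folr1. For Lepr it ran from 0.55 to 1.19. The Ttr difference between those differences, ADPolB minus AD, ran from -1.85 to 0.88. Below the gap, urolithin A minus vehicle in AD mice was -1.28 (SE 0.697) for Ttr, against 1.99 (SE 1.87) over all mice. In ADPolB mice the Lepr difference with Ttr in the model was 1.46 below the gap, against 0.66 over all mice. That value below the gap rests on 1 mouse per treatment. With 1 mouse left out AD minus wild type ran from -1.17 to 1.501 for Ttr, -0.998 to 0.871 for Folr1 and -0.33 to 0.47 for Lepr. Centring each mouse on its median shifted the median of all genes by -0.12 for AD minus wild type, -0.17 for ADPolB minus wild type and -0.10 for urolithin A minus vehicle in ADPolB mice. The calls for AD against wild type, 1 as reported, were 0 with median centring, with quantile scaling and with only the groups compared, and 0 to 2 with 1 mouse left out. For ADPolB against wild type the 0 calls became 1 with the replicate block and 0 to 6 with 1 mouse left out (6 without AD vehicle replicate 5). ADPolB against AD on urolithin A had 0 to 1, and females against males 0 to 28. The 21 calls for the Ttr slope were 2 with the side of the gap as a term, 2 above the gap, 0 below it and 14 to 47 with 1 mouse left out. Folr1, Slc16a8 and Lepr were not among the 2 called with the side as a term. The Lepr slope on Ttr was 0.0895 with the side as a term, 0.419 above the gap and -0.170 below it, and the Slc16a8 slope below it -0.153. The Lepr difference with Ttr in the model was 0.230 above the gap, 0.69 with median centring, 0.71 with quantile scaling, 0.73 with sex as a term, 0.73 without both mice of low total counts and 0.65 to 0.86 with 1 mouse left out. Female minus male turned to -0.156 for Folr1 and -0.214 for Ttr without wild-type replicate 3, to -0.059 for Ttr without AD urolithin A replicate 4 (highest 0.977, without ADPolB urolithin A replicate 2), and to -0.078 for Slc16a8 without both mice of low total counts. Below the gap, r of the levels of Folr1 with Slc16a8 was 0.141 with median centring, 0.374 in males and -0.508 to 0.238 with 1 mouse left out; Folr1 with Lepr was -0.26 in males and -0.156 to 0.275 with 1 mouse left out, and Slc16a8 with Lepr 0.230 and -0.339 to 0.128. The cause of these changes was not tested, beyond the smaller number of mice on 1 side of the gap.

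The labels do not say what the replicate numbers stand for. The side of the Ttr gap went with them in part. In every group replicate 3 was above the gap (Ttr 11.28 to 13.09) and replicate 2 below it (5.69 to 7.15). Replicates 1, 4 and 5 fell on both sides. Over all genes the pairs did not all deviate together. Over 43 pairs of the same number the median correlation of deviations was 0.17, with a lowest of -0.39 and 27 over 0.1. Over 168 pairs of different numbers it was -0.08 with 56 over 0.1, and 6 of 23 mice correlated best with their own number. With the replicate number as a block, the Ttr slope called 1 gene in place of 21, and the Lepr slope was 0.0955 (adjusted p = 0.664 by limma) and that of Slc16a8 0.16 (adjusted p = 0.44); the Lepr difference with Ttr in the model was 0.88. Low counts limit Slc16a8 and, below the gap, Folr1.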
